A study of Mus musculus with 24 samples.

Results

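Psilocybin was compared with its vehicle, phosphate-buffered saline (PBS), in the mouse visual cortex under 1 light condition, using 12 of the 24 RNA sequencing libraries of the series. The members are libraries 7 to 12 from mice given psilocybin and libraries 1 to 6 from mice given PBS, chosen by the column names of the deposited count table. All mice were C57BL/6J males of 8 to 10 weeks on a reversed light cycle, and no transgene or deletion is named for any group. Psilocybin was injected into the peritoneum at 5 mg/kg, the other mice received PBS by the same route, and the visual cortex was dissected 2.5 h after the mice were moved into light or left in darkness. The series held PBS and psilocybin mice both in light and in darkness, and the comparison here concerns the drug within 1 of these conditions.

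The 2 sources for the light condition contradict each other. The headings of the study's supplementary tables place libraries 1 to 12 in the dark and 13 to 24 in the light, whereas the sample labels name libraries 1 to 6 PBS-Light, 7 to 12 Psi-Light, 13 to 18 PBS-Dark and 19 to 24 Psi-Dark. Drug and library number were the same in both sources, so the 2 groups compared here shared 1 light condition under either. They are called PBS mice and psilocybin mice below, and the remaining 12 libraries are called by their numbers.

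Psilocybin loses its phosphate group in the body to give psilocin, an agonist of the serotonin 5-HT2A receptor, which couples to Gq and phospholipase C and is abundant on pyramidal neurons of the cortex. Calcium entry and kinase signalling in an active neuron reach transcription factors that are already present, above all CREB and SRF, which switch on the immediate early genes without new protein synthesis. The first of these genes encode transcription factors (the FOS, EGR and NR4A families and NPAS4), and a following group encodes proteins that act at the synapse or outside the cell, such as ARC, HOMER1 and BDNF. Light reaching the visual cortex after darkness is a classical inducer of the same genes.

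Bulk RNA of dissected tissue was measured, so libraries were first compared by marker genes of cell types and neighbouring brain regions. Total counts were 15086279 to 17367802 in the PBS mice and 13552516 to 17696207 in the psilocybin mice. Values below are normalized counts, that is, counts scaled to a mean effective library size of 16058300, and a group of 6 mice is given as its lowest, median and highest value. The glutamatergic marker Slc17a7, a vesicular glutamate transporter, had 11156, 26762 and 29869 normalized counts in the PBS mice and 24552, 28566 and 30562 in the psilocybin mice. Summed counts of 10 pan-glutamatergic cortical markers, Slc17a7 among them, were 39315, 98887 and 118950 in the PBS mice. In the psilocybin mice they were 94501, 131773 and 144585. The lowest were PBS mouse 1 (39315) and PBS mouse 6 (49177). The summed counts of 10 hippocampal markers were 2379, 3864 and 6865 in the PBS mice and 1385, 1524 and 1753 in the psilocybin mice. These sums did not overlap, and they were 1375 to 1677 in libraries 13 to 24. The mean log2 level of the same list did overlap, with PBS mouse 6 (6.23) below psilocybin mouse 12 (6.46). Sums weigh abundant genes most, and Fibcd1 of this list alone had 322, 1878 and 4785 against 120, 140 and 292. Of the hippocampal markers 3 of 10 passed as lower (30%, against 12.8% of all genes), and the median log2 fold change was -1.07. For 10 hypothalamic and basal forebrain markers the sums were 439, 2312 and 5023 against 166, 219 and 651, and 8 of 10 were lower (80%, against 12.8% of all genes).

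Sums of 10 cerebellar markers reached 39145 in PBS mouse 1, 81989 in PBS mouse 6 and 37862 in psilocybin mouse 12, against 643 to 3248 in the other 9 libraries. PBS mouse 1 also held 3522 counts of 8 monoamine neuron markers, against 164 to 263 in the other 11. Layer 2/3 and 4 markers moved the opposite way to the hippocampal ones. Of these 9 of 12 were higher in the psilocybin mice (75%, against 11.9% of all genes), at a median log2 fold change of 1.19. In bulk tissue, fewer cells of a type and less RNA per cell cannot be told apart. How far the makeup of the dissected pieces sets the gene differences below was not tested beyond the fits given with them.

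**Figure D1:**
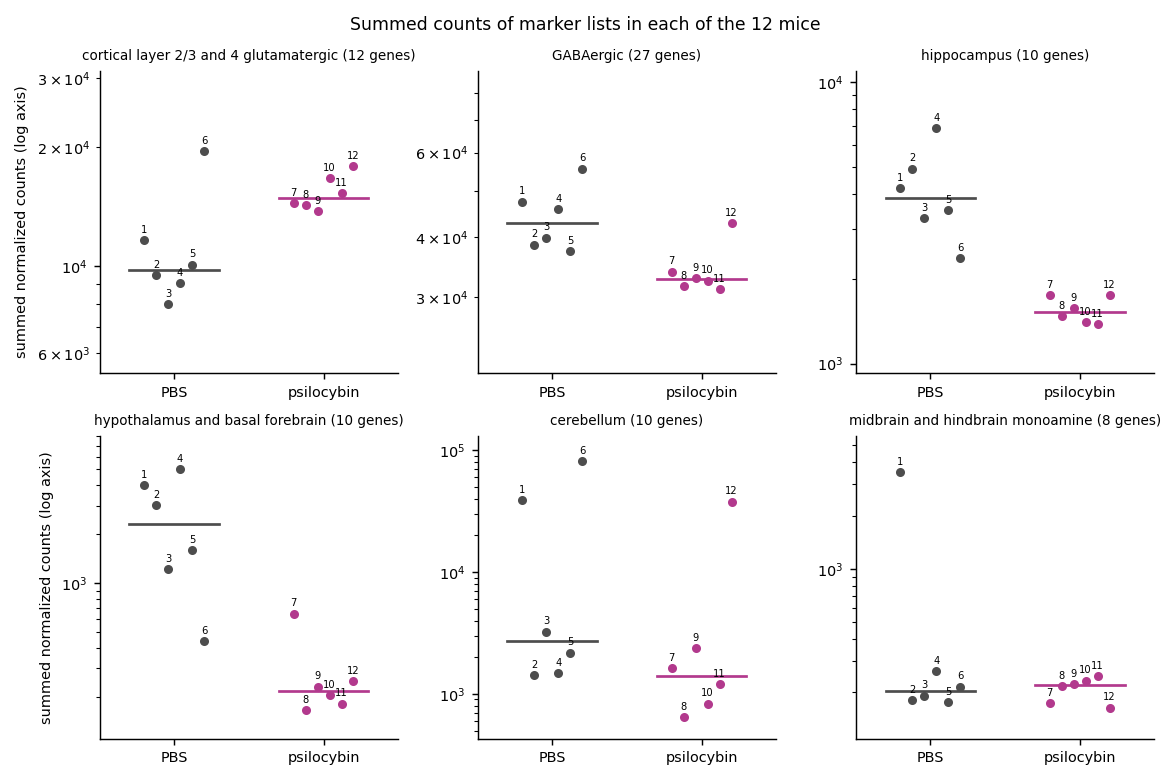
Summed normalized counts of 6 marker lists (log axis) in each PBS mouse (1 to 6) and psilocybin mouse (7 to 12), with points numbered by library and a line at the group median. The hippocampal sums of the PBS mice lie between 2379 and 6865, all above the psilocybin mice, and PBS mice 1 and 6 and psilocybin mouse 12 stand above the others for cerebellar markers.

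Of 14464 genes tested with edgeR's quasi-likelihood test, 24.7% passed an adjusted p of 0.05, 11.9% with higher and 12.8% with lower counts in the psilocybin mice. Among the genes called, 260 rose and 305 fell by at least 2-fold, that is, by a log2 fold change of 1. In 5.58% of genes tested the 6 mice of one group did not overlap the 6 of the other, 453 higher and 354 lower with psilocybin. With PBS mice 1 and 6 and psilocybin mouse 12 left out, a choice made after seeing the data, 16.7% of genes were higher and 18.7% lower. When the mean of the hippocampal list entered the same test as a covariate, edgeR called 0 genes, with 1362 at an unadjusted p under 0.05 and a smallest adjusted p of 0.166. That covariate itself differs between the groups, so what it takes up and what the drug does cannot be told apart.

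CREB binds the cAMP response element, TGACGTCA, and also its core TGACG, which is read as CGTCA on the opposite strand, and many immediate early genes carry such letters just before the start of transcription. The 250 bases before the annotated start (RefSeq, GRCm38.p6) were searched on both strands for the core, where a full element counts as holding it. Windows of 5 genes are printed because they set a gene that rose beside relatives that did not: Npas4, Fos and Nr4a1 rose, Nr4a3 did not pass the test and Jun fell. Capitals mark each core match, and Jun's window has none.
Npas4, chr19:4989972-4990221, minus strand: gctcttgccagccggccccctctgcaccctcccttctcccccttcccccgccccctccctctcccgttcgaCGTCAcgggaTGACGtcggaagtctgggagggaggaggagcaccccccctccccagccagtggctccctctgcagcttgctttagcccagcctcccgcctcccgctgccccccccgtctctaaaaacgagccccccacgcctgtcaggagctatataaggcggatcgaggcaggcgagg
Fos, chr12:85473640-85473889, plus strand: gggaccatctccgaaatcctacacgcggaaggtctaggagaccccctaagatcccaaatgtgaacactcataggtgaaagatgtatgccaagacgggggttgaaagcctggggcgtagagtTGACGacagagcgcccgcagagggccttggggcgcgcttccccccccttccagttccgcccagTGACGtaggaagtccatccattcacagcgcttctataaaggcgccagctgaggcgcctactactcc
Nr4a1, chr15:101266596-101266845, plus strand: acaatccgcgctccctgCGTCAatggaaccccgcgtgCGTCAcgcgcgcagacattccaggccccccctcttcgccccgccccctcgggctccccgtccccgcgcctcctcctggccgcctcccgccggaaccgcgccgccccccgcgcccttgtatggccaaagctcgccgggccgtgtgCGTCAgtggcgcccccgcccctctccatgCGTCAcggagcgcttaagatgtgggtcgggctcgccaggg
Nr4a3, chr4:48045055-48045304, plus strand: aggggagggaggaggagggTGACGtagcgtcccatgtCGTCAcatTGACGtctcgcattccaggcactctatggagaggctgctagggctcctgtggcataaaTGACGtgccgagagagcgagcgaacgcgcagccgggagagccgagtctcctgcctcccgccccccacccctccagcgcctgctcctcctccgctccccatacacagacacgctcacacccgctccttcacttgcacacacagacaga
Jun, chr4:95052223-95052472, minus strand: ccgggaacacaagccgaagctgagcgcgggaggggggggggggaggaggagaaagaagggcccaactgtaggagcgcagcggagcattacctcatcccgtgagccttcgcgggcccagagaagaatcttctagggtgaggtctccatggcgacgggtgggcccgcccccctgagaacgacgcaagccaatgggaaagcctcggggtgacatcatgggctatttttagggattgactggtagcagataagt

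The matches in Npas4 begin 179 and 169 bases before the start, and those in Fos 129 and 66 bases before it. Nr4a1 and Nr4a3 hold 4 matches each, although the first rose and the other did not pass the test. Across the immediate early and effector genes described next, 18 of the 30 genes that rose and had an entry held a core in at least 1 window (60%), as did 12 of 21 that were not called (57.1%), against 19.8% of 27025 genes. The full element was in 5 of the 30 (16.7%) and 2 of the 21 (9.52%), against 1.77% of all genes. A CArG box, which SRF binds, was in 1 of the 30 (3.33%) and 1 of the 21 (4.76%), against 1.62%. Genes with several annotated starts had more windows to match, and these shares describe letters in a window only. Within the lists, the core was about as frequent in genes that rose as in genes that were not called.

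Immediate early transcription factors were mostly higher in the psilocybin mice. Of 29 tested, 17 rose (58.6%, against 11.9% of all genes), 1 fell, and 11 were not called, and the median log2 fold change was 0.62 against -0.02 over all genes. The mean log2 level of the list was 7.93, 8.69 and 8.73 in the PBS mice and 8.84, 9.17 and 9.28 in the psilocybin mice, so every psilocybin mouse lay above every PBS mouse. Taken singly, 7 of the 29 genes did not overlap between groups (5.58% of all genes did not). Calls in 11 of 29 held in 18 other settings, as did those of 11.4% of all genes. These settings were each mouse left out in turn, other tools and scalings, the 12 libraries alone, and the doubtful libraries out. No fit with a covariate was among these 18. With the mean of the hippocampal list, or of the layer 2/3 and 4 list, as a covariate, edgeR called 0 of the 29.

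Npas4 (ENSMUSG00000045903, chromosome 19, 5034382 to 5040344, minus strand, GRCm39) encodes a transcription factor that is induced by calcium entry and regulates inhibitory synapses. It had 36.7, 107 and 145 normalized counts in the PBS mice and 249, 332 and 353 in the psilocybin mice (log2 fold change 1.70 ± 0.29, adjusted p = 0.000237), and the highest PBS mouse lay below the lowest psilocybin mouse. Egr1, a zinc finger factor used as a marker of neuronal activity, had 903, 2285 and 3405 normalized counts in the PBS mice and 4485, 7698 and 8590.2 in the psilocybin mice (log2 fold change 1.64 ± 0.23, adjusted p = 3.36e-05), again without overlap. Its relative Egr3 had 588, 2475 and 4086 normalized counts in the PBS mice and 3919.8, 8472 and 10196 in the psilocybin mice (log2 fold change 1.84 ± 0.33, adjusted p = 0.000392), where the groups overlapped by psilocybin mouse 12 alone. Mouse 12 was also the one psilocybin mouse within the PBS range for Fos, Nr4a1 and Homer1, described next, and it holds the most cerebellar RNA of its group. Egr2 (1.33 ± 0.45, adjusted p = 0.0334) and Egr4 (0.77 ± 0.22, adjusted p = 0.0135) also rose, so all 4 members of the family moved one way. Without the 3 libraries rich in cerebellar RNA, Egr2 no longer passed (0.93, adjusted p = 0.0589).

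The AP-1 genes did not move together. FOS and JUN proteins pair to form AP-1, which reads out sustained activity. Fos (chromosome 12, 85520658 to 85524047, plus strand) had 166, 341 and 422 normalized counts in the PBS mice and 339, 599.8 and 675 in the psilocybin mice (log2 fold change 0.78 ± 0.23, adjusted p = 0.0148), with overlapping groups. Fosb (chromosome 7, 19036621 to 19043976, minus strand) had 126, 495 and 547 normalized counts in the PBS mice and 556, 872 and 961 in the psilocybin mice (log2 fold change 1.11 ± 0.27, adjusted p = 0.00476), with no overlap, although the call was lost when libraries 1 to 12 were fitted alone (adjusted p = 0.0571). Jun (chromosome 4, 94937271 to 94940459, minus strand) went the other way, with 1394, 1895 and 2468 normalized counts in the PBS mice and 840.2, 1038 and 1338 in the psilocybin mice (log2 fold change -0.89 ± 0.15, adjusted p = 0.00022), and all 6 psilocybin mice lay below all 6 PBS mice. It was the single gene of both early lists to fall. Junb, Jund and Fosl2 were not called, at log2 fold changes of 0.30, 0.17 and 0.05. Of the small partners of AP-1, Maff rose by 0.74 ± 0.23 (adjusted p = 0.0194) and Atf3 by 0.83 ± 0.29 (adjusted p = 0.0417) from low counts.

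The NR4A orphan nuclear receptors also divided. Nr4a1 (chromosome 15, 101151980 to 101172681, plus strand) had 281, 783 and 1018 normalized counts in the PBS mice and 867, 2133 and 2544 in the psilocybin mice (log2 fold change 1.49 ± 0.33, adjusted p = 0.00198), and the groups overlapped in a narrow range. Nr4a2, required by dopamine neurons and also activity-induced, had 551, 1828 and 3577 normalized counts in the PBS mice and 582, 1229 and 1829.8 in the psilocybin mice and was not called (log2 fold change -0.66 ± 0.32, adjusted p = 0.139). It passed as lower without PBS mice 1 and 6 and psilocybin mouse 12 (-0.96, adjusted p = 0.0169). Nr4a3 had 471, 1018 and 1546 normalized counts in the PBS mice and 586, 928 and 1071 in the psilocybin mice, fully overlapping and not called (log2 fold change -0.18 ± 0.23, adjusted p = 0.613). Among the other factors, Ier5, which acts with heat shock factor 1, had 395, 686 and 1420.1 normalized counts in the PBS mice and 1427, 2815 and 3456 in the psilocybin mice (log2 fold change 1.81 ± 0.23, adjusted p = 1.60e-05) without overlap, though with a gap of a few counts. Crem, whose ICER isoform represses CREB targets, rose by 0.76 ± 0.15, Klf10 by 0.96 ± 0.23, Csrnp1 by 0.78 ± 0.16, the clock repressor Bhlhe40 by 0.62 ± 0.11 and Klf6 by 0.35 ± 0.08. Ier2 rose by 0.55 ± 0.19 (adjusted p = 0.0397). Myc, Klf2, Klf4, Ier3, Btg1 and Btg2 were not called.

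**Figure D2:**
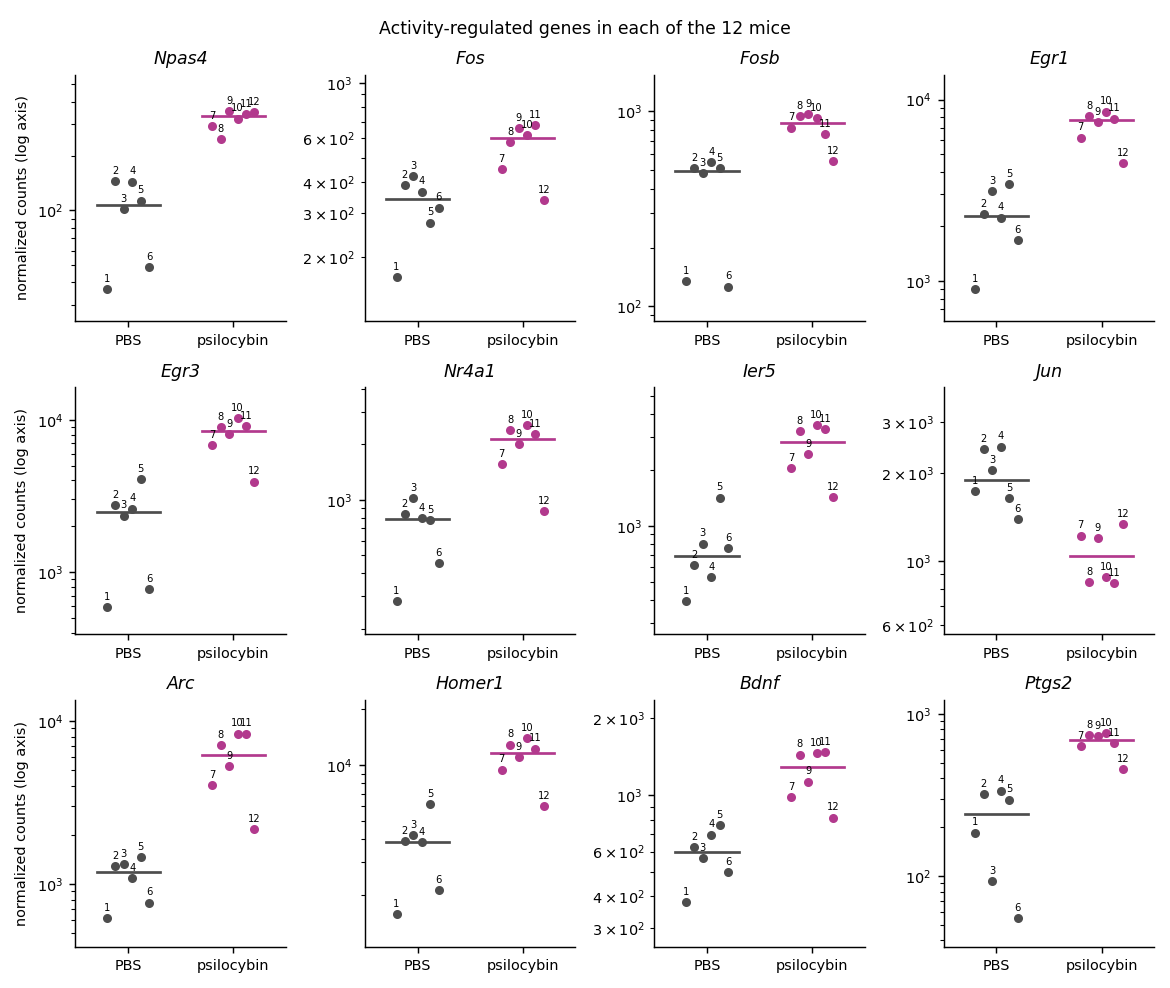
Normalized counts (log axis) of 12 early genes in each PBS mouse (1 to 6) and psilocybin mouse (7 to 12), with points numbered by library and a line at the group median. Npas4, Egr1, Fosb and Arc separate the 6 psilocybin mice above the 6 PBS mice, Fos, Egr3 and Nr4a1 overlap, and Jun is lower in all 6 psilocybin mice.

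Effector genes, the targets that carry activity to synapses and signalling, were also mostly higher. Of 40 tested, 27 were higher (67.5%, against 11.9% of all genes) and 0 lower by edgeR, and 13 were not called, with a median log2 fold change of 0.58. At an unadjusted p under 0.05 there were 31 higher and 1 lower, and DESeq2 called 27 and 0. The mean log2 level was 8.57, 8.85 and 9.00 in the PBS mice and 9.13, 9.65 and 9.78 in the psilocybin mice, without overlap. Taken singly, 11 of the 40 did not overlap between groups, against 5.58% of all genes, and 17 calls held in the 18 other settings. Without PBS mice 1 and 6 and psilocybin mouse 12 the counts were 30 higher and 1 lower for effectors and 16 and 2 for the transcription factors. With the hippocampal covariate, or with that of layer 2/3 and 4 markers, edgeR called 0 of either list. Arc and Npas4 were at 1.49 (adjusted p = 0.305) and 1.53 (adjusted p = 0.302) with the hippocampal one.

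Arc (ENSMUSG00000022602, chromosome 15, 74540932 to 74544419, minus strand) encodes a capsid-like protein that drives AMPA receptor internalisation at synapses, and it showed the largest difference of the 40. It had 617, 1185 and 1454 normalized counts in the PBS mice and 2159, 6220.5 and 8377 in the psilocybin mice, a 5.42-fold ratio of means (log2 fold change 2.44 ± 0.30, adjusted p = 1.39e-05). The lowest psilocybin mouse was above the highest PBS mouse. Homer1 (chromosome 13, 93436143 to 93541637, plus strand), whose short inducible form uncouples group 1 metabotropic glutamate receptors from the postsynaptic scaffold, had 1569, 3863 and 6185 normalized counts in the PBS mice and 6001, 11657 and 14009 in the psilocybin mice (log2 fold change 1.59 ± 0.26, adjusted p = 0.000147), overlapping by the lowest psilocybin mouse. These counts pool the long and short transcripts of the gene. Nptx2, a secreted pentraxin that gathers AMPA receptors, rose by 1.62 ± 0.40 (adjusted p = 0.00465), and Rheb, the activator of mTORC1, by 0.16 ± 0.05 (adjusted p = 0.0186).

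Secreted factors formed a second set. Bdnf (chromosome 2, 109505045 to 109557475, plus strand), the neurotrophin that binds TrkB, had 381, 595 and 760.2 normalized counts in the PBS mice and 816, 1284 and 1469.5 in the psilocybin mice (log2 fold change 1.05 ± 0.16, adjusted p = 7.47e-05), and no psilocybin mouse overlapped a PBS mouse. The granin Vgf rose by 0.75 ± 0.19, secretogranin Scg2 by 0.58 ± 0.18, the neuritin gene Nrn1 by 0.77 ± 0.13 and Inhba, the activin A subunit, by 1.16 ± 0.34. Pcsk1, the convertase that cuts such precursors, rose by 0.75 ± 0.14. Ptgs2, or cyclooxygenase 2, had 54.8, 240.4 and 336 normalized counts in the PBS mice and 456, 694 and 757 in the psilocybin mice (log2 fold change 1.63 ± 0.29, adjusted p = 0.000363), again without overlap.

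Several of the effectors restrain kinase or G protein signalling. Of 5 dual-specificity phosphatases, which switch MAP kinases off, 4 rose, with Dusp14 at 1.18 ± 0.21, Dusp6 at 1.07 ± 0.21, Dusp1 at 0.57 ± 0.17 and Dusp4 at 0.56 ± 0.19, while Dusp5 was at -0.09 ± 0.34. Spry2, an inhibitor of receptor tyrosine kinase signalling, had 578, 714 and 785 normalized counts in the PBS mice and 972, 1204 and 1339 in the psilocybin mice (log2 fold change 0.75 ± 0.09, adjusted p = 1.11e-05), and its relative Spry4 was not called (-0.02 ± 0.16). Rgs4, which speeds the shut-off of Gq and Gi, had 1793, 4069 and 5382 normalized counts in the PBS mice and 5557, 9703 and 11473 in the psilocybin mice (log2 fold change 1.36 ± 0.23, adjusted p = 0.0002), whereas Rgs2 was at 0.26 ± 0.13 and not called. The atypical kinase gene Mapk4 had 1083, 1352 and 1680.3 normalized counts in the PBS mice and 1944, 2251 and 2458 in the psilocybin mice (log2 fold change 0.70 ± 0.08, adjusted p = 1.03e-05). These 3 that rose showed no overlap, and neither did Gem, a GTPase that restrains calcium channels, with 11.9, 22.8 and 30.2 against 34, 77.7 and 109 (1.79 ± 0.25). The cell cycle inhibitor Cdkn1a had 313, 510.3 and 771 against 957, 1134 and 1392 (1.16 ± 0.16), also without overlap, and the stress sensor Gadd45a rose by 1.38 ± 0.25. Not called were Lonrf3, Gadd45g, Sik1, Plk2, Per1, Pim1, Tiparp, Tnfaip6, Amigo3 and Rasl11a.

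The drug comparison was repeated in libraries 13 to 24, and the difference between the drug effects was tested as an interaction. In libraries 13 to 24, 0.608% of genes passed, 8 higher and 80 lower with psilocybin. Cerebellar marker sums reached 23746 in PBS mice 13 to 18 (median 901) and 2001 in psilocybin mice 19 to 24 (median 685). The library at 23746 was kept in this comparison. The interaction passed for 8.75% of genes, and for 8 of the 29 transcription factors and 15 of the 40 effectors. Arc had 4915, 7071 and 13567 in PBS mice 13 to 18 and 8352, 9517 and 14940.0 in psilocybin mice 19 to 24, at a log2 fold change of 0.41 ± 0.29 there, and the difference between the drug effects was 2.03 ± 0.41 (adjusted p = 0.00554). Npas4 differed by 1.42 ± 0.39 (adjusted p = 0.0282) and Egr1 by 1.48 ± 0.32 (adjusted p = 0.00756), and Fosb by 1.25 ± 0.38 (adjusted p = 0.0429). Bdnf differed by 1.19 ± 0.22 (adjusted p = 0.00333) and Homer1 by 1.78 ± 0.36 (adjusted p = 0.00554). For Fos the difference was 0.33 ± 0.32 (adjusted p = 0.578) and for Nr4a1 1.01 ± 0.45 (adjusted p = 0.161), which did not pass.

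Levels by mouse show which group stood apart. In 11 of the 69 early genes every one of PBS mice 1 to 6 lay below all 18 other mice, and these were Npas4, Egr1, Ier5, Arc, Ptgs2, Rgs4, Arl4d, Spry2, Fbxo33, Gem and Cdkn1a. For Jun every one lay above them. No early gene placed psilocybin mice 7 to 12 beyond all other mice. Npas4 was 351, 502 and 697 in PBS mice 13 to 18 and 347, 527 and 1037 in psilocybin mice 19 to 24, and Egr1 was 6456, 8471 and 10488 in PBS mice 13 to 18 and 6751, 9820.4 and 11721 in psilocybin mice 19 to 24, where both groups lay in or above the range of psilocybin mice 7 to 12. Over all 14464 genes, 475 had PBS mice 1 to 6 outside all other mice, 278 of them below and 197 above. For psilocybin mice 7 to 12 the number outside all other mice was 3. For PBS mice 13 to 18 the number was 5 and for psilocybin mice 19 to 24 it was 41. PBS mice 1 to 6 were also the most variable group, with a median within-group SD of 0.216 on the log2 scale, against 0.143 in psilocybin mice 7 to 12.

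**Figure D3:**
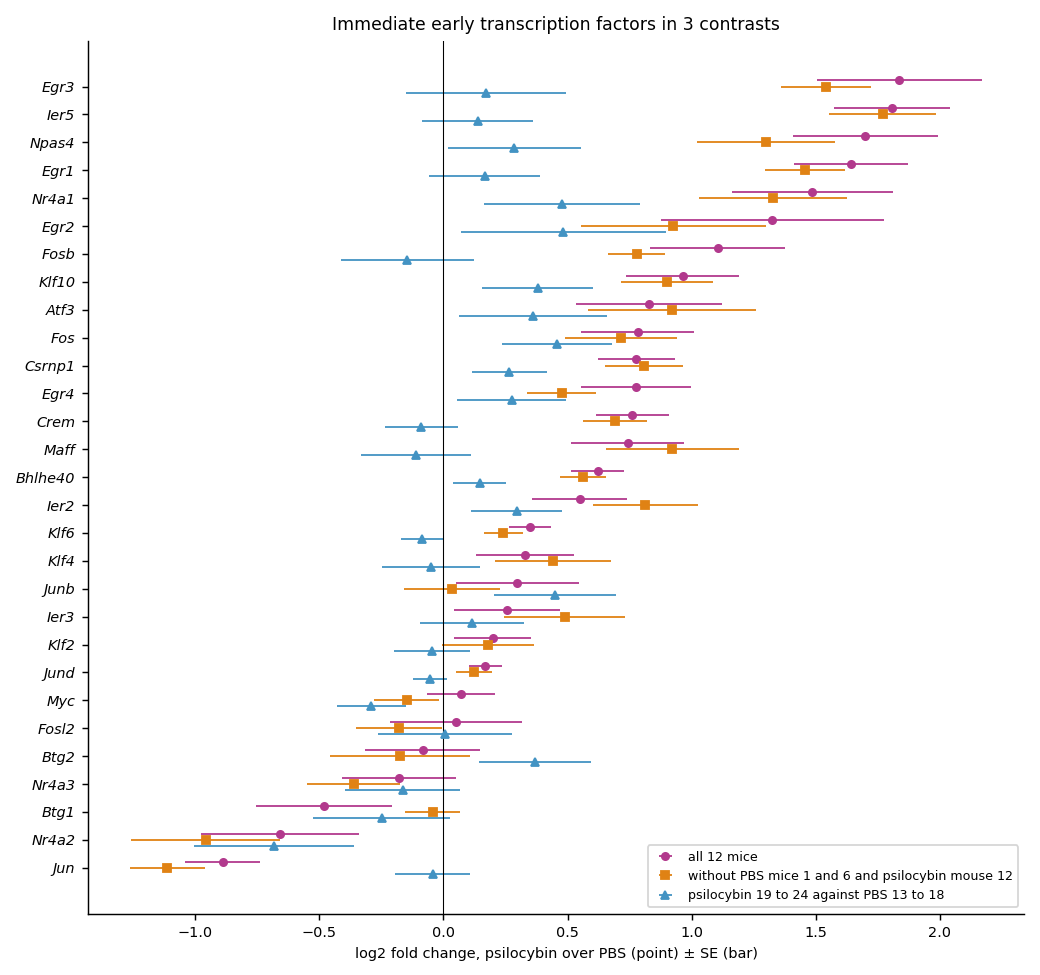
Log2 fold change (± SE) with psilocybin for 29 immediate early transcription factors, in all 12 mice, without PBS mice 1 and 6 and psilocybin mouse 12, and between psilocybin mice 19 to 24 and PBS mice 13 to 18. The first pair of series lie close together for most genes, while the estimates of libraries 13 to 24 stay nearer 0, as for Npas4 and Egr1.

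Serotonin receptors were next compared, since psilocin acts on several of them. Of 12 receptor and transporter genes tested, 1 rose (8.33%, against 11.9% of all genes) and 4 fell (33.3%, against 12.8%), at a median log2 fold change of -0.36. Without PBS mice 2 to 5 that direction turned, and 5 were higher and 3 lower, at a median of 0.16. That subset leaves only PBS mice 1 and 6, both rich in cerebellar RNA, here and in the lists below. It also called more genes of all kinds, 3026 higher and 2909 lower of 14464, against 1719 and 1856 with all mice. Without PBS mice 1 and 6 and psilocybin mouse 12, 2 were higher and 6 lower, at a median of -0.45. Htr2a (chromosome 14, 74877344 to 74946934, plus strand), the Gq-coupled receptor through which psilocin exerts its perceptual effects, had 223, 418 and 685 normalized counts in the PBS mice and 323, 579.8 and 665 in the psilocybin mice, with overlapping groups, and was not called (log2 fold change 0.40 ± 0.21, adjusted p = 0.172). Htr2c (chromosome X, 145745509 to 145980286, plus strand), the closely related Gq-coupled receptor, had 337, 1489 and 2123 normalized counts in the PBS mice and 193, 213 and 346 in the psilocybin mice (log2 fold change -2.55 ± 0.37, adjusted p = 4.25e-05), and 1 PBS mouse lay inside the psilocybin range. In libraries 13 to 24 the 12 mice held 145 to 467 counts of it, below all but the lowest PBS mouse. Htr1d had 6.4, 12.9 and 42 against 1.2, 3.19 and 4.93, from few counts, and fell (-2.41 ± 0.49), as did Htr4 (-1.17 ± 0.32) and Htr7 (-0.80 ± 0.17), which both couple to Gs. Htr1f, a Gi-coupled receptor, was the member that rose, with 9.14, 14.6 and 27.9 against 26, 54.3 and 62 (log2 fold change 1.49 ± 0.28, adjusted p = 0.000463). Htr1a, the main inhibitory receptor of the family, was at -0.59 ± 0.24 (adjusted p = 0.08).

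Downstream of Gq, 6 of 24 genes rose (25%, against 11.9% of all genes) and 2 fell (8.33%, against 12.8%), at a median of -0.10. The median turned to 0.20 without PBS mice 2 to 5 and was -0.04 without PBS mice 1 and 6 and psilocybin mouse 12. Plcb1, the main cortical phospholipase C beta, rose by 0.58 ± 0.13, the calcium-dependent kinase C gene Prkcb by 0.68 ± 0.15 and Dgkz, which removes diacylglycerol, by 0.64 ± 0.13. Grk2, the kinase that marks active receptors for arrestin, had 3942, 4272 and 4560.0 against 4688, 5369.6 and 5846 (log2 fold change 0.32 ± 0.05, adjusted p = 0.000201), and Arrb1, one of the arrestins, rose by 0.23 ± 0.05. Dgkg fell, with 2270.4, 2463 and 3436 normalized counts in the PBS mice and 1092, 1326 and 1669.6 in the psilocybin mice (log2 fold change -0.96 ± 0.12, adjusted p = 1.25e-05). Gnaq and Gna11, the G protein subunits themselves, were not called, at 0.08 ± 0.06 and -0.03 ± 0.07. Of Grk2, Rgs7 and Dgkg, the groups overlapped in none.

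Among AMPA, kainate and NMDA receptor subunits, 5 of 15 fell (33.3%, against 12.8% of all genes) and 1 rose (6.67%, against 11.9%). Without PBS mice 2 to 5 the counts were 6 lower and 7 higher. Without PBS mice 1 and 6 and psilocybin mouse 12 they were 5 lower and 1 higher. Gria1, the AMPA subunit inserted during potentiation, had 8810.2, 9824 and 13328 normalized counts in the PBS mice and 5536, 6155 and 7615 in the psilocybin mice (log2 fold change -0.71 ± 0.09, adjusted p = 1.52e-05). Grin3a, a subunit that lowers the calcium flux of NMDA receptors, had 1056, 1579 and 1823 normalized counts in the PBS mice and 599, 754 and 863 in the psilocybin mice, a ratio of means of 0.499 (adjusted p = 1.03e-05). Neither gene overlapped between groups. Grin1, the obligatory NMDA subunit, went the other way, with 4316, 5727 and 6363 against 6377, 6818 and 7217 (log2 fold change 0.28 ± 0.07, adjusted p = 0.00675), and Grik1 (-0.53 ± 0.11), Grik2 (-0.33 ± 0.06) and Grin2d (-0.38 ± 0.11) fell. Gria2, Grin2a and Grin2b were not called, at 0.06 ± 0.14, 0.40 ± 0.16 and 0.06 ± 0.23.

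GABA-A receptor subunits divided 3 higher to 6 lower of 16 (18.8% and 37.5%, against 11.9% and 12.8% of all genes), and 4 to 2 without PBS mice 2 to 5. Without PBS mice 1 and 6 and psilocybin mouse 12 they divided 4 higher to 8 lower. Gabra5, the subunit of extrasynaptic receptors that is rich in the hippocampus, had 1066, 1506 and 2170.2 normalized counts in the PBS mice and 596, 891 and 1038 in the psilocybin mice (log2 fold change -0.82 ± 0.16, adjusted p = 0.00062), and Gabra2 fell (-0.74 ± 0.17). Gabrq and Gabre, both also on the hypothalamic and basal forebrain list, fell (-3.20 ± 0.63 and -2.76 ± 0.67). Gabra4 rose by 0.50 ± 0.13. The hippocampal and hypothalamic marker sums were also higher in the PBS mice (medians 3864 and 2312, against 1524 and 219), and their part in the lower receptor genes was not tested.

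Scaffold genes of the excitatory synapse moved up by small amounts. Of 25 postsynaptic scaffold genes 10 rose (40%, against 11.9% of all genes) and 0 fell by edgeR, at a median log2 fold change of 0.28 (15 and 1 at an unadjusted p under 0.05, and 12 and 0 by DESeq2). Apart from Homer1, Dlgap2 rose by 0.68 ± 0.22, Dlgap3 by 0.55 ± 0.16, Dlg1 (SAP97) by 0.50 ± 0.09, Shank1 by 0.42 ± 0.12 and Shank3 by 0.25 ± 0.07. Dlg4, which encodes PSD-95, was at 0.33 ± 0.13 (adjusted p = 0.0671) and was not called. Without PBS mice 1 and 6 and psilocybin mouse 12, 11 passed as higher and 3 as lower, among them the adhesion protein gene Lrrtm1 (-0.62, adjusted p = 9.39e-06).

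On the presynaptic side 7 of 25 release genes rose (28%, against 11.9% of all genes) and 3 fell (12%, against 12.8%). The syntaxin gene Stx1a rose by 1.05 ± 0.23 (adjusted p = 0.0018), the priming factor Unc13a by 0.50 ± 0.11, the calcium sensor Syt1 by 0.45 ± 0.12 and Snap25 by 0.38 ± 0.10. Syn2, a synapsin (-0.51 ± 0.12), Nsf, which takes spent SNARE complexes apart (-0.22 ± 0.07), and Unc13c, abundant in the cerebellum (-1.05 ± 0.37), fell. Among 7 metabotropic glutamate receptors, Grm3 alone passed, at 0.52 ± 0.11 (14.3% higher, against 11.9% of all genes).

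**Figure D4:**
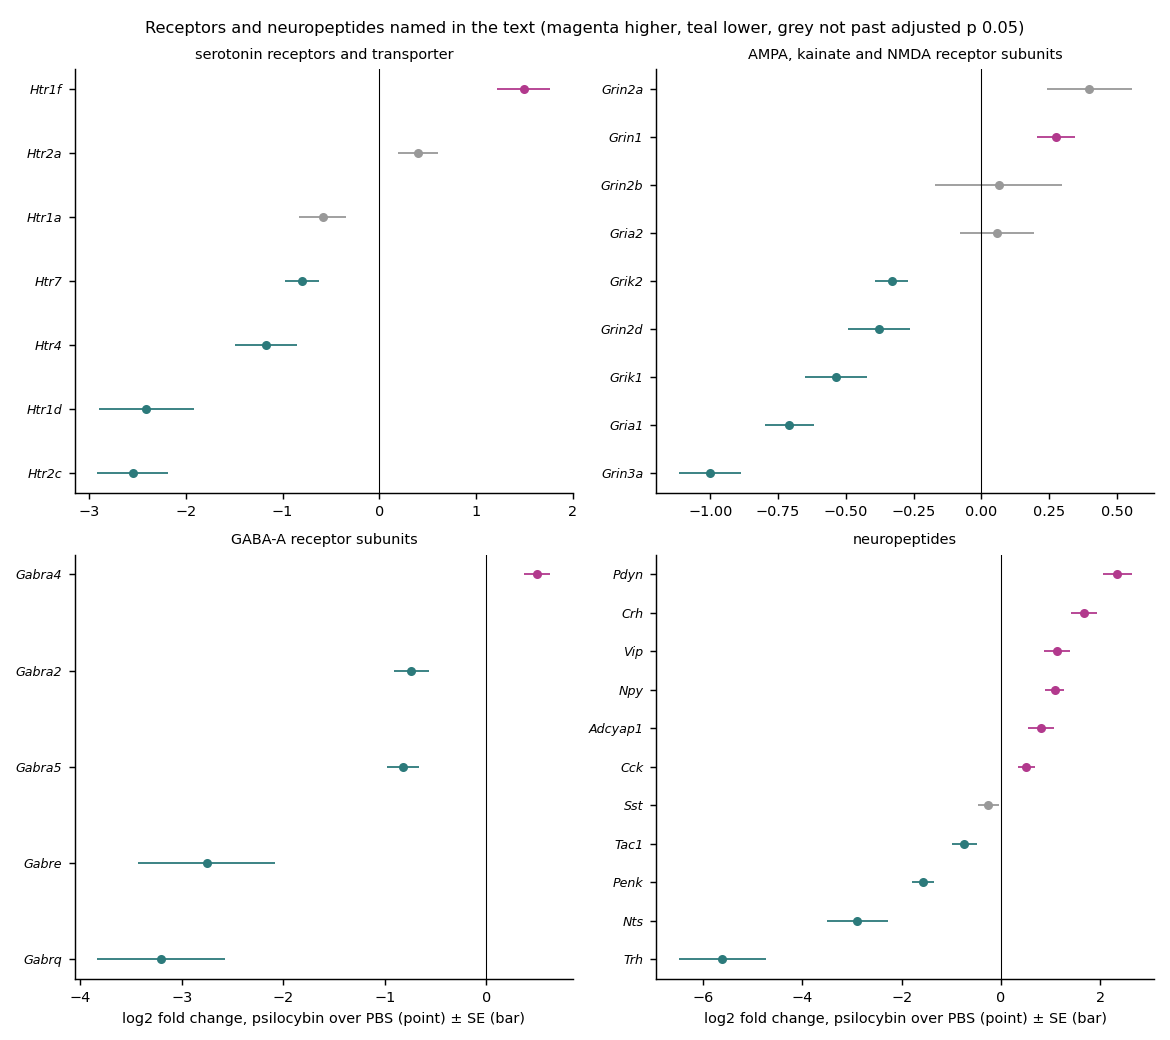
Log2 fold change (± SE) with psilocybin for the serotonin receptor, glutamate receptor, GABA-A receptor and neuropeptide genes named in the text, with magenta for genes called higher, teal for lower and grey for those not called. Htr2c (-2.55), Gria1 (-0.71) and Penk (-1.57) lie below 0, Pdyn (2.34) and Crh (1.67) above it, and Htr2a (0.40) was not called.

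Potassium channel genes, which set how readily a neuron fires, gave 10 higher and 4 lower of 37. The share higher was 27% against 11.9% of all genes, and the share lower, 10.8%, was near the 12.8% of all genes. The EAG channel genes Kcnh5 and Kcnh1 were the 2 of 37 that did not overlap between groups, a share near the 5.58% of all genes. Kcnh5, which is also on the layer 2/3 and 4 list, had 23.7, 56.6 and 172 normalized counts in the PBS mice and 177, 319.6 and 499 in the psilocybin mice (log2 fold change 2.17 ± 0.31, adjusted p = 3.74e-05). Kcnh1 had 732, 842 and 1148 normalized counts in the PBS mice and 1284, 1951 and 2439.7 in the psilocybin mice (log2 fold change 1.12 ± 0.14, adjusted p = 1.25e-05). Kcnq5, a subunit of the M current, rose by 1.16 ± 0.19, Kcnh7 by 1.04 ± 0.21 and the sodium-activated Kcnt2 by 0.85 ± 0.16. Kcnn3, an SK channel, fell (-0.77 ± 0.17). Kcnma1, the BK channel, was not called (0.01 ± 0.09).

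Neuropeptide precursors changed in both directions, 6 higher and 5 lower of 18 (33.3% and 27.8%, against 11.9% and 12.8% of all genes). Their median of -0.20 turned to 0.31 without PBS mice 2 to 5 and was -0.20 without PBS mice 1 and 6 and psilocybin mouse 12. Pdyn (chromosome 2, 129528469 to 129541945, minus strand), the precursor of the kappa opioid dynorphins, had 26.5, 65.5 and 184 normalized counts in the PBS mice and 282, 408 and 460.0 in the psilocybin mice (log2 fold change 2.34 ± 0.29, adjusted p = 1.39e-05). Its lowest psilocybin mouse lay above the highest PBS mouse. Penk, the enkephalin precursor and also a striatal marker, had 661, 1188 and 1501 normalized counts in the PBS mice and 278, 345 and 685 in the psilocybin mice (log2 fold change -1.57 ± 0.22, adjusted p = 3.29e-05), so the opioid precursors moved apart. Crh, made in cortex by a class of interneurons, had 22.8, 81.5 and 116 normalized counts in the PBS mice and 153, 232 and 353 in the psilocybin mice (log2 fold change 1.67 ± 0.26, adjusted p = 0.000112), without overlap. Vip rose by 1.12 ± 0.26 and Npy by 1.08 ± 0.20, both made by interneurons, Cck by 0.51 ± 0.17 and the PACAP precursor Adcyap1 by 0.80 ± 0.26. Sst was not called (-0.26 ± 0.21). Trh, on the hypothalamic list too, had 6.47, 381 and 1637 against 5, 11.1 and 18.2, and Nts (-2.89 ± 0.62) and Tac1 (-0.74 ± 0.25) fell. In libraries 13 to 24, Pdyn was 312, 470.0 and 519 in PBS mice 13 to 18 and 354, 481 and 554 in psilocybin mice 19 to 24, and the drug effects differed by 2.28 ± 0.39 (adjusted p = 0.00221).

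Genes induced by the glucocorticoid receptor, through which the stress hormone corticosterone acts, were listed as well, and both groups had been injected. Of 18 tested, 5 rose (27.8%, against 11.9% of all genes) and 0 fell by edgeR and by DESeq2 (7 and 0 at an unadjusted p under 0.05), at a median of 0.23. The mean log2 level did not overlap between groups, at 9.23, 9.40 and 9.58 in the PBS mice and 9.63, 9.69 and 9.76 in the psilocybin mice. Klf9, a direct target of the receptor, had 3609, 4109.9 and 6053 normalized counts in the PBS mice and 6137, 7757 and 8504 in the psilocybin mice (log2 fold change 0.74 ± 0.12, adjusted p = 0.000174). Fkbp5, the co-chaperone that dampens the receptor, had 691, 1061 and 1217 against 1259, 1358 and 1539 (log2 fold change 0.45 ± 0.14, adjusted p = 0.0272) and no longer passed without PBS mice 1 and 6 and psilocybin mouse 12 (0.30, adjusted p = 0.119). Zbtb16 rose by 0.50 ± 0.12. Dusp1 and Cdkn1a, the other 2 that rose, are also on the effector list. Sgk1 (0.48 ± 0.20), Tsc22d3 (0.18 ± 0.11) and Pdk4 (0.02 ± 0.15), textbook targets as well, were not called.

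Of 17 clock genes, 6 rose (35.3%, against 11.9% of all genes) and 1 fell, by small amounts with tight groups. Bmal1 (chromosome 7, 112806152 to 112914735, plus strand), the partner of CLOCK, had 537, 678 and 707 normalized counts in the PBS mice and 807, 869 and 973 in the psilocybin mice (log2 fold change 0.43 ± 0.07, adjusted p = 7.71e-05). The period gene Per3 had 280.4, 328 and 346 normalized counts in the PBS mice and 422, 458 and 508 in the psilocybin mice (log2 fold change 0.52 ± 0.07, adjusted p = 3.44e-05). Bhlhe41, a repressor of CLOCK and BMAL1, fell, with 704, 755 and 921 normalized counts in the PBS mice and 499, 612 and 696 in the psilocybin mice (log2 fold change -0.36 ± 0.08, adjusted p = 0.00305). None of these 3 overlapped between groups. Besides Bhlhe40, Hlf, Nfil3 and Clock rose by 0.47 ± 0.12, 0.38 ± 0.12 and 0.19 ± 0.07, and Per1, Per2, Dbp and Nr1d1 were not called. For Bmal1 the drug effects differed between the pairs by 0.69 ± 0.09 (adjusted p = 0.00088), with 726, 828 and 882 in PBS mice 13 to 18 and 636, 689.8 and 725 in psilocybin mice 19 to 24.

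**Figure D5:**
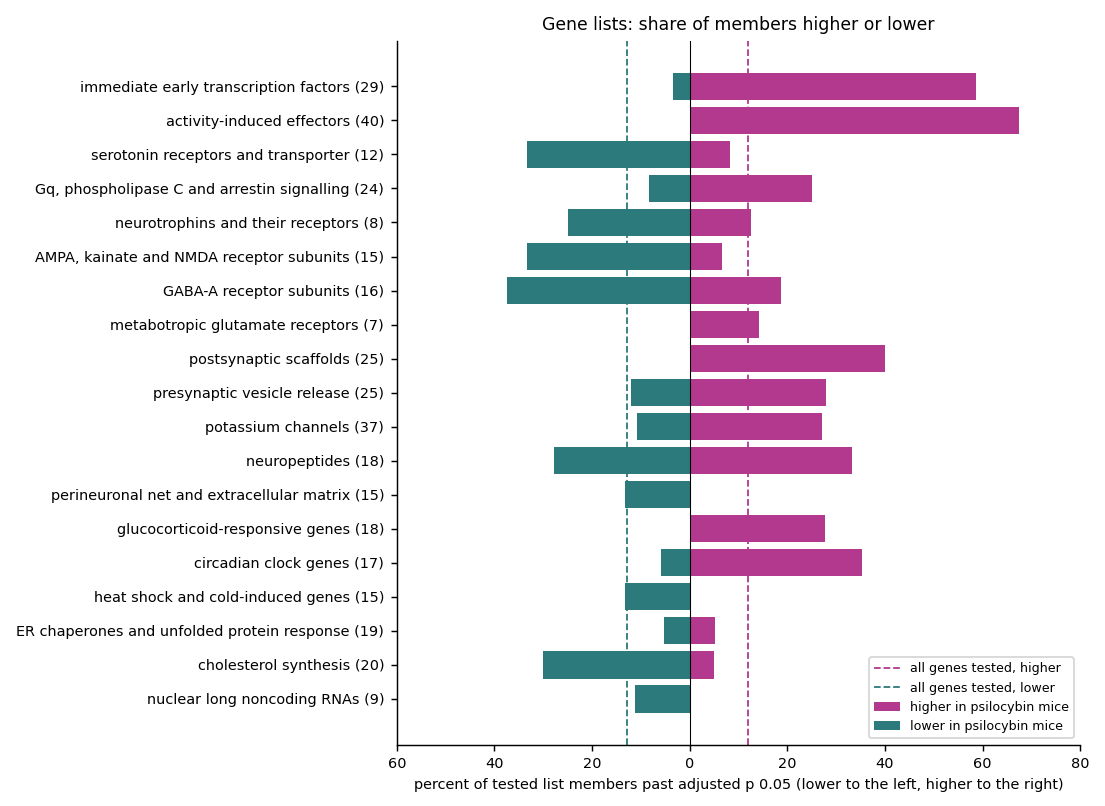
Percent of tested members called higher or lower with psilocybin in 19 gene lists, with dashed lines at the share over all genes (11.9% higher and 12.8% lower). Effectors (67.5%) and immediate early transcription factors (58.6%) have the largest shares called higher.

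Across all genes, those with a mean of at least 100 normalized counts in the higher group were ranked, by fold change among the called genes whose groups did not overlap, and then by how far apart the groups lay among all called genes. Besides Arc and Pdyn, the 10 largest rises held Mdfic2 (3.74 on the log2 scale), Rspo1, Myl4, Smim43, Hkdc1, Gm15721, Dkkl1 and Fst. Rspo1, a secreted enhancer of Wnt signalling that is also on the layer 2/3 and 4 list, had 5.48, 15 and 59.9 normalized counts in the PBS mice and 68.1, 202 and 276 in the psilocybin mice (log2 fold change 2.96 ± 0.46, adjusted p = 8.92e-05). Fst, the secreted antagonist of activin, had 7.31, 24.3 and 45.6 normalized counts in the PBS mice and 91.1, 120.3 and 134 in the psilocybin mice (log2 fold change 2.25 ± 0.27, adjusted p = 1.25e-05), a rise beside that of the activin subunit Inhba. Myl4, a myosin light chain, had 15.5, 45.2 and 109 against 162, 349.7 and 533 (2.81 ± 0.35) and the hexokinase-related Hkdc1 16.1, 43.9 and 80.9 against 159, 233 and 314 (2.41 ± 0.29).

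The 10 largest falls among those non-overlapping genes were of Fibcd1, Ndst4, Dcn, Baiap3, Nmbr, Igsf1, AW551984, Tmem255a, Epb41l4a and Cpne2. Fibcd1 and Baiap3 are on the hippocampal and hypothalamic lists, and Dcn on that of meningeal cells. Decorin, the product of Dcn, is a proteoglycan of the extracellular matrix, and its counts were 557, 1976 and 4811 against 103, 266 and 547 (log2 fold change -3.00 ± 0.49, adjusted p = 0.00014). Of the other 9 meningeal markers none was called, and Col1a1 was at 0.27 ± 0.34 and Lum at -0.56 ± 0.30. Ndst4, which sulfates heparan chains, had 149, 338 and 623 against 19, 38.4 and 89.7 (-3.02 ± 0.57), and Nmbr, the neuromedin B receptor, 51, 123 and 265 against 12, 19.6 and 27.6 (-2.79 ± 0.34).

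Among the remaining genes, those with the widest gap relative to the spread of their groups were taken next. Etnk2, an ethanolamine kinase, had 37.5, 47.4 and 88.3 normalized counts in the PBS mice and 125, 215 and 228 in the psilocybin mice (log2 fold change 1.91 ± 0.18, adjusted p = 2.00e-06). The splicing repressor Ptbp1 rose by 0.49 ± 0.08, the lysosomal regulator Tfe3 by 0.22 ± 0.03, the ETS repressor Etv6 by 0.98 ± 0.13 and the p38 kinase Mapk11 by 1.29 ± 0.13, with C130074G19Rik at 1.96 ± 0.20 and Afap1l1 at 1.15 ± 0.11. On the lower side, the condensin gene Smc2 had 193, 205 and 286 against 127, 131 and 135 (log2 fold change -0.73 ± 0.09, adjusted p = 1.56e-05), the RNA granule protein Caprin1 4638, 4739 and 4868 against 4286, 4325 and 4406 (-0.13 ± 0.03) and the heparan sulfotransferase Hs6st2 1014, 1160.2 and 1353 against 586, 664 and 792 (-0.78 ± 0.11). Skap2, Cyb5r1, Tdrkh, Limch1 and Spock2 were at -0.76, -0.61, -0.45, -0.33 and -0.23.

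Neuronal markers differed by layer and class. Cux2, a transcription factor of upper layers, had 611, 981 and 1495 normalized counts in the PBS mice and 2141, 2532 and 3074 in the psilocybin mice (log2 fold change 1.35 ± 0.20, adjusted p = 4.52e-05), and Lamp5, also in upper layers, had 385, 946 and 1584 normalized counts in the PBS mice and 2058, 3698 and 4660.0 in the psilocybin mice (log2 fold change 1.96 ± 0.24, adjusted p = 1.25e-05), neither with overlap. Of the layer 4 factor Rorb the fold change was 1.02 ± 0.21, whereas Calb1 (-0.74 ± 0.35) and Otof (0.08 ± 0.45) of the same list were not called. Layer 5 gave 3 higher and 2 lower of 11 (27.3% and 18.2%, against 11.9% and 12.8% of all genes), and layer 6 gave 3 and 1 of 12 (25% and 8.33%). Pan-glutamatergic genes gave 4 higher (40%, against 11.9% of all genes) and 0 lower of 10 by edgeR and by DESeq2 (5 and 1 at an unadjusted p under 0.05), with Emx1 at 1.20 ± 0.24 and Mef2c, itself an activity-regulated factor, at 1.09 ± 0.25. Of 27 GABAergic markers 2 were higher (7.41%) and 9 lower (33.3%). Without PBS mice 2 to 5 the counts were 10 and 13, and without PBS mice 1 and 6 and psilocybin mouse 12 they were 3 and 15. The 2 higher with all mice were the peptide genes Vip and Npy. Nos1, the neuronal nitric oxide synthase, had 2422, 3128 and 4442 normalized counts in the PBS mice and 729, 953 and 1574 in the psilocybin mice (log2 fold change -1.68 ± 0.22, adjusted p = 1.91e-05). Gad2 fell (-0.20 ± 0.06), and Gad1, Pvalb and Lhx6 were not called. With the mean of the layer 2/3 and 4 list as a covariate, chosen after seeing the data, edgeR called 49 genes, 47 higher and 2 lower, and Arc was at 0.38 (adjusted p = 0.777).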

How the data were processed

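Poly-A RNA of dissected visual cortex was sequenced from 24 mice. The authors trimmed the reads with cutadapt, aligned them with STAR and counted reads per gene with htseq-count (HTSeq), and deposited 1 table of raw counts over 55414 genes, of which 31758 had a count. Their methods name the genome build GRCm39 and an Ensembl annotation, whereas the processing notes in the sample labels name mm10. Tool versions, annotation release and the strand setting are not given in the sources used here, so overlapping antisense genes may share counts. Gene names and coordinates came from GENCODE vM39 (GRCm39), which named 54749 of the genes.

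From these counts, the test took the 14464 genes whose highest count reached 30 (14427 of them named). All 24 libraries in 4 groups were fitted with edgeR 4.0.16 (R 4.3.3), with TMM scaling and its quasi-likelihood test, Benjamini-Hochberg adjustment and a threshold of 0.05. The common biological coefficient of variation was 0.182. Errors of log2 fold changes are SE. P-values and SDs measure the spread between libraries, each taken as 1 mouse. The total counts per library limit low genes most. Alternatives used DESeq2 1.42.0, limma 3.58.1 (voom with a weight per group), sva 3.50.0, other filters and scalings, covariates, and subsets of mice. The fits were tested on simulated data.

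Genes named outside the lists had a mean of at least 100 normalized counts in the higher group. They were the 10 per direction with the largest fold among called genes without overlap and the 8 per direction with the widest separation. Also named were 4 early genes the study measured and the 5 with the smallest p for the difference in drug effect between the pairs. Gene and marker lists were chosen with earlier results of these data known, so list counts are descriptions. Promoter windows, the 250 bases before each start, came from RefSeq (GRCm38.p6) and were matched by symbol, with genes on chromosome 18 left out. Some list members are counted but not reported by name here.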

Additional observations from a re-analysis of the deposited data

Results flagged for a closer look

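The drug effect differed between libraries 1 to 12 and 13 to 24 for 1266 genes (edgeR, interaction term), and the differences below are log2 fold changes of libraries 1 to 12 minus those of 13 to 24. The largest rises, largest falls and widely separated genes were picked by the contrast of libraries 1 to 12 itself. A difference of the same sign was therefore largely set by that choice, and their values are descriptions. Among genes with the largest rises the differences were 3.39 for Mdfic2, 2.87 for Rspo1, 2.61 for Myl4, 2.32 for Smim43, 2.03 for Arc, 2.21 for Hkdc1, 2.28 for Pdyn, 2.04 for Gm15721, 2.10 for Dkkl1 and 2.35 for Fst. For the largest falls they were -3.38 for Fibcd1, -2.82 for Ndst4, -3.13 for Dcn, -2.77 for Baiap3, -2.97 for Nmbr, -2.63 for Igsf1, -2.45 for AW551984, -1.77 for Tmem255a, -1.62 for Epb41l4a and -1.41 for Cpne2. Widely separated genes that were higher gave 1.65 for Etnk2, 1.97 for C130074G19Rik, 0.52 for Ptbp1, 1.27 for Etv6, 0.42 for Per3, 1.07 for Mapk11 and 1.01 for Afap1l1. Those that were lower gave -0.67 for Skap2, -0.68 for Smc2, -0.65 for Cyb5r1, -0.35 for Tdrkh, -0.20 for Spock2, -0.29 for Limch1 and -0.75 for Hs6st2. Tfe3 (adjusted p = 0.0566) and Caprin1 (adjusted p = 0.323) did not pass. The early genes gave 1.42 for Npas4, 1.25 for Fosb and 1.48 for Egr1, and Mapk4 (0.94), Bmal1 (0.69) and Slc6a15 (-0.71) were among the most certain.

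Slc6a15, a neutral amino acid transporter, had 1152, 1242 and 1489 normalized counts in the PBS mice and 752, 902 and 1052 in the psilocybin mice (log2 fold change -0.51 ± 0.07, adjusted p = 3.29e-05), and 780.1, 876 and 911 in PBS mice 13 to 18 and 969.6, 987 and 1012 in psilocybin mice 19 to 24. Etv6 had 229.9, 278 and 408 normalized counts in the PBS mice and 488, 591 and 633 in the psilocybin mice, and 380.1, 531 and 619.9 in PBS mice 13 to 18 and 337, 429.6 and 442 in psilocybin mice 19 to 24. In both genes, and in Bmal1 and Mapk4, the estimate in libraries 13 to 24 had the opposite sign, at 0.20 ± 0.07, -0.29 ± 0.12, -0.26 ± 0.07 and -0.24 ± 0.08, and none of these 4 passed there. All 4 were picked by a small p for the difference between the pairs. That choice favours opposite signs, so the signs are descriptions.

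Single mice stood apart from the other 5 of their group by Dixon's ratio of gap to range. They were psilocybin mouse 12 for Etnk2 (0.707) and for the pan-glutamatergic list (0.691), psilocybin mouse 10 for the blood list (0.720), PBS mouse 5 for the layer 2/3 and 4 list (0.735) and PBS mouse 1 for the monoamine list (0.908). Chance alone marks about 1 in 20 groups.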

How the results depend on the processing

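No paired analysis was possible because the groups share no replicate numbers. The 3575 genes called became 2266 with voom, 1971 with libraries 1 to 12 alone, 5935 without PBS mice 2 to 5, 49 with the layer 2/3 and 4 covariate, and 0 with the hippocampal covariate by edgeR (1362 at an unadjusted p under 0.05). They numbered 1933 at an adjusted p of 0.01 and 565 at an absolute log2 fold change of 1, and 2763 to 4196 with 1 mouse left out. The 1266 genes whose drug effect differed became 759 without a filter, 2858 with 1 surrogate variable, 0 with the hippocampal covariate by edgeR, 75 with that of layer 2/3 and 4, 1987 with that of cerebellum, 3065 without PBS mice 1 and 6, 4036 without PBS mice 2 to 5 and 3345 without PBS mice 1 and 6 and psilocybin mouse 12. With 1 mouse left out they ran from 835 (psilocybin 11; 838 without psilocybin 10) to 2083 (PBS 6). The 88 of libraries 13 to 24 became 191 with DESeq2, 55 with filterByExpr, 22 without a filter, 337 with voom, 291 with 1 surrogate variable, 210 with the cerebellar covariate, 190 without PBS mice 1 and 6 and 275 without psilocybin mouse 12 as well, and 61 to 90 with 1 mouse left out. The 807 genes without overlap became 2702 without PBS mice 1 and 6, 5573 without PBS mice 2 to 5, 3788 without PBS mice 1 and 6 and psilocybin mouse 12, and 850 to 1783 with 1 mouse left out (the most without psilocybin 12, and 1574 without PBS 6), where fewer mice make non-overlap easier. The layer covariate turned Myl4 to -0.196, Smim43 to -0.401, Gm15721 to -0.36 and Fosb to -0.03, and the layer 5 list level was -0.298 as the log2 of summed counts. Apart from the counts without overlap, the cause was not tested. The cerebellar and layer covariates and the subset without psilocybin mouse 12 were chosen after seeing the data.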

Other observations

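Of 12 microglial genes 2 passed as higher (16.7%, against 11.9% of all genes), C1qb at 0.24 ± 0.09 and the protease gene Ctss at 0.25 ± 0.09, while Cx3cr1 and P2ry12 were at 0.01 ± 0.12 and 0.14 ± 0.12. Of 12 endothelial and pericyte genes 0 passed by edgeR or DESeq2, and 0 were at an unadjusted p under 0.05, with Cldn5, the tight junction protein of the blood-brain barrier, at -0.11 ± 0.14. Astrocyte genes gave 1 higher and 3 lower of 12 (8.33% and 25%, against 11.9% and 12.8% of all genes). Gja1, the gap junction protein connexin 43, had 3738, 3802 and 4559.7 normalized counts in the PBS mice and 2688, 2899.6 and 3730.1 in the psilocybin mice (log2 fold change -0.37 ± 0.09, adjusted p = 0.00448), and Aldh1l1, a folate enzyme used as a pan-astrocyte marker, had 913, 999.8 and 1126 normalized counts in the PBS mice and 1137, 1222 and 1332 in the psilocybin mice (log2 fold change 0.28 ± 0.06, adjusted p = 0.00111). The groups overlapped in neither, and the 2 markers of 1 cell type moved apart. Oligodendrocyte genes gave 0 of 12 with all mice by edgeR, by DESeq2 and at an unadjusted p under 0.05. Without PBS mice 1 and 6 and psilocybin mouse 12 they gave 12 higher of 12, where Mbp, the myelin basic protein, was at 1.01 (adjusted p = 0.00457) against 0.21 ± 0.33. Without PBS mice 2 to 5 the direction turned, with 0 higher and 6 lower, at a median of -0.70. PBS mouse 1 held 141435 summed counts of this list, against 21089 to 59924 in PBS mice 2 to 6. Of 8 precursor genes 3 were lower (37.5%, against 12.8% of all genes), at a median of -0.31, and C1ql1 fell (-0.83 ± 0.16). Striatal markers gave 1 higher and 3 lower of 11 (9.09% and 27.3%), thalamic markers 1 and 1 of 11 (9.09% each), and choroid plexus markers 1 lower of 7 (14.3%). Over all genes 11.9% were higher and 12.8% lower, so the thalamic and choroid plexus shares were near those of all genes. The thalamic sums nevertheless differed between mice. They were 9103 in PBS mouse 1, 9965 in PBS mouse 6 and 5132 in psilocybin mouse 12, against 1790 to 2606 in the other mice of these groups. Without PBS mice 2 to 5, 6 of the 11 thalamic markers were lower and 0 higher, at a median of -1.24.

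Cholesterol synthesis gave 6 lower and 1 higher of 20 (30% and 5%, against 12.8% and 11.9% of all genes), and 2 lower and 4 higher without PBS mice 2 to 5. Without PBS mice 1 and 6 and psilocybin mouse 12 it gave 9 lower and 1 higher. Sqle, squalene epoxidase, was at -0.41 ± 0.09 (adjusted p = 0.00159), Fdps at -0.45 ± 0.10, Nsdhl at -0.41 ± 0.11 and Dhcr7, the last enzyme of the pathway, at -0.34 ± 0.06. Among 15 heat shock and cold-induced genes 2 fell (13.3%, near the 12.8% of all genes), the mitochondrial chaperonin pair. Hspe1 (-0.34 ± 0.06) had 475, 569 and 615 against 422, 440.3 and 464, and Hspd1 was at -0.16 ± 0.04. The inducible Hspa1a and Hspa1b were not called. Of 19 endoplasmic reticulum chaperone and unfolded protein response genes, Atf4 rose by 0.20 ± 0.07 and Canx fell (-0.16 ± 0.05). These were 5.26% in each direction, against 11.9% higher and 12.8% lower of all genes. Perineuronal net and matrix genes gave 2 lower of 15 (13.3%, near the 12.8% of all genes). They were Ptprz1, a receptor phosphatase that binds chondroitin sulfate, with 4390.3, 5276 and 5837 normalized counts in the PBS mice and 3165, 3482 and 3929.8 in the psilocybin mice (log2 fold change -0.55 ± 0.08, adjusted p = 7.75e-05), and the protease gene Mmp9 at -0.62 ± 0.19. Aggrecan (Acan) and brevican (Bcan), core proteins of the net, were at -0.33 ± 0.19 and -0.03 ± 0.07. Beside Bdnf, the neurotrophin list held Ntf3 and Ngfr as lower, at -1.38 ± 0.42 and -1.14 ± 0.37, and the BDNF receptor gene Ntrk2 at 0.22 ± 0.10, not called. Of 9 long noncoding RNAs Snhg14 alone passed, at -0.24 ± 0.08 (11.1% lower, against 12.8% of all genes).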
